A study of Mus musculus with 2 samples.

Results

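The insulin-like growth factor (IGF) family was followed in single cells of injured mouse calvaria as 10 genes: the ligands Igf1 and Igf2, the receptors Igf1r and Igf2r, and the binding proteins Igfbp2, Igfbp3, Igfbp4, Igfbp5, Igfbp6 and Igfbp7. The genes were chosen by symbol alone from the 32285 genes listed for both libraries, of which 24329 had a unique molecular identifier (UMI) in at least 3 kept cells. All 10 were among those 24329. The rule used the gene names and no value of the genes, but it was set with earlier results of these data known.

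The cells came from C57BL/6 mice (C57BL/6J in the methods of the study) aged 2 months, with no transgene named, whose skull had a 1.8 mm defect, and skull tissue around the defect was digested on day 7. The GA group received intraperitoneal gambogic amide, a small-molecule agonist of TrkA, the receptor of nerve growth factor, at 1.2 mg/kg in 10% DMSO. The control group received 10% DMSO. Injections of 100 µL began 24 h before the injury and went on daily for 1 week in both groups (the methods of the study give 2 mg/kg and 4 weeks in place of these). Each group was 1 library made from 5 pooled mice, so no spread between animals could be had, no test between the groups was possible, and every interval below covers counting error only.

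IGF-1 and IGF-2 are small secreted ligands that act through IGF1R, a receptor tyrosine kinase that signals through IRS adaptors, PI3K and AKT, and in bone they are known for promoting the growth and differentiation of osteoblast-lineage cells. IGF2R, also the mannose 6-phosphate receptor, takes IGF-2 up for breakdown in lysosomes and sends lysosomal enzymes on their way. The binding proteins hold the ligands outside cells, lengthen or block their action, and are themselves cut by proteases such as PAPPA. IGFBP7 binds the ligands only weakly and is known as a product of vessel cells.

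On GRCm38 (GENCODE M21 annotation), the ligands lie at chr10:87858265-87937042 on the plus strand (Igf1, ENSMUSG00000020053) and at chr7:142650766-142666816 on the minus strand (Igf2, ENSMUSG00000048583). Igf1r is at chr7:67952827-68233668 (plus) and Igf2r at chr17:12682406-12769664 (minus). Igfbp2 at chr1:72824503-72852474 (plus) and Igfbp5 at chr1:72857932-72874884 (minus) are neighbours whose facing ends are 5457 bases apart. Igfbp3 is at chr11:7206086-7213923 (minus), Igfbp4 at chr11:99041244-99054392 (plus), Igfbp6 at chr15:102144362-102149511 (plus) and Igfbp7 at chr5:77349240-77408041 (minus). All 10 genes are annotated as protein coding. Igf2 shares 7124 bases with Igf2os and Igf2r shares 28354 bases with Airn, both annotated on the opposite strand. Whether reads inside introns were counted is not given in the sources used here.

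The promoters of the 3 binding proteins that were higher in GA beyond 1.5-fold in 3 or more groups of cells are shown, from RefSeq on GRCm38.p6, as the 300 bases that run from 250 before to 50 after the start RefSeq annotates, 5′ to 3′ on the strand of the gene. Capitals mark TATAA, the core of a promoter element near many start sites, and GGGCGG or CCAAT, the letters of other common promoter elements, searched on both strands. Igfbp5 is chr1:72874816-72875115 (minus), Igfbp6 is chr15:102143936-102144235 (plus) and Igfbp4 is chr11:99040994-99041293 (plus).
Igfbp5: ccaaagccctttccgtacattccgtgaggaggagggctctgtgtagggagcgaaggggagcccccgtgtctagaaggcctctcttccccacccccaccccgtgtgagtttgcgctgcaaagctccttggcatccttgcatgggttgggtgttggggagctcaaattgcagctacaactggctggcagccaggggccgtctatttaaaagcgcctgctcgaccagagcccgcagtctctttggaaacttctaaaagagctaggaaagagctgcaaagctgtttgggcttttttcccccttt
Igfbp6: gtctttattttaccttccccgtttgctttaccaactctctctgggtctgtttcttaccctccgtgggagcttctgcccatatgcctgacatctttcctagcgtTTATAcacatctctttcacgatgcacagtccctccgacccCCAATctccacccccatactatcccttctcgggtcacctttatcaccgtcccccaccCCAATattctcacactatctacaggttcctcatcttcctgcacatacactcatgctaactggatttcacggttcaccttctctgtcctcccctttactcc
Igfbp4: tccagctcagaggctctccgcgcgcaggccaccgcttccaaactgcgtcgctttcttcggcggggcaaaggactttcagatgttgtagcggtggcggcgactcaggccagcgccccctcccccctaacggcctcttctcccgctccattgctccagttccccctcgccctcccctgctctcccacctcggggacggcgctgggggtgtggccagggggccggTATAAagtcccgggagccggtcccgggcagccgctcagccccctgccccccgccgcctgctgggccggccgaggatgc
None of the 3 motifs was in the Igfbp5 window. The Igfbp6 window held TATAA read from the other strand at position -147 and CCAAT at positions -107 and -50, counted from the start. The Igfbp4 window held TATAA at position -28. Among 32851 promoters of the same length, 24.9% held TATAA, 35.7% GGGCGG and 37.4% CCAAT at any position on either strand, so holding such a motif was common. These shares are not those of a match at a given position and strand, such as that of Igfbp4. GGGCGG was in none of the 3 windows, and it occurred 4 times in the window of Igfbp7, 3 times each in those of Igf2r and Igfbp2, 2 times in that of Igf1r, and 2 times in 1 and 1 time in another of the windows of Igf2.

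After filters, 8376 GA cells (160388662 UMIs, median 10930 per cell) and 7555 control cells (184414573 UMIs, median 16336) remained. Cells were clustered without the 10 genes, and clusters were named from marker lists as "like" a type. Mesenchymal cells made up 865 cells (10.3%) of GA and 1748 (23.1%) of control, while neutrophil-like cells made up 4417 (52.7%) and 2083 (27.6%). Macrophage-like or monocyte-like cells were 1267 and 1764, and endothelial-like cells were 45 and 46. The 2 libraries shared 23 barcodes, 19 of them among kept cells. The share of UMIs from free RNA, read from collagen genes in lymphoid cells, was estimated at 1.11% in GA and 1.06% in control. Neutrophil markers moved with the condition outside the neutrophil-like class too: in the mesenchymal lineage all 11 listed markers were higher in GA, with a summed level of 1829 CPM against 219 CPM, and the macrophage list was at 29.4 and 29.0 CPM. The part of this in the results below was not tested.

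Levels are UMIs of a gene scaled to a total of 1000000 (CPM) over all UMIs in the summed cells of a group, with the exact Poisson 95% interval where it is given. A ratio is log2 of GA over control with its exact conditional binomial 95% interval, and "beyond 1.5-fold" means an absolute log2 ratio of at least 0.585 with at least 200 UMIs over both libraries. The UMIs are counted at one end of each transcript, and levels are compared between groups of cells for 1 gene, not between genes.

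Which cells the family came from differed by member. The mesenchymal lineage held 98.6% of Igf2 UMIs in GA and 98.7% in control, 98.2% and 97.6% of Igfbp2, 97.5% and 97.7% of Igfbp5, and 96.6% and 98.4% of Igfbp6. Igf1 had a pair of sources: the lineage held 61.6% and 70.8% of its UMIs, and macrophage-like or monocyte-like cells held 34.6% and 27.0%. Igfbp3 and Igfbp7 were shared with the 45 and 46 endothelial-like cells, which held 11.8% and 12.9% of Igfbp3 UMIs and 14.2% and 14.2% of Igfbp7 UMIs. Of the Igfbp3 UMIs of endothelial-like cells, 689 of 745 in GA and 1095 of 1870 in control lay in 5 cells. Igf1r was the exception, with 76.2% of its GA UMIs and 47.8% of its control UMIs in neutrophil-like cells.

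**Figure D1:**
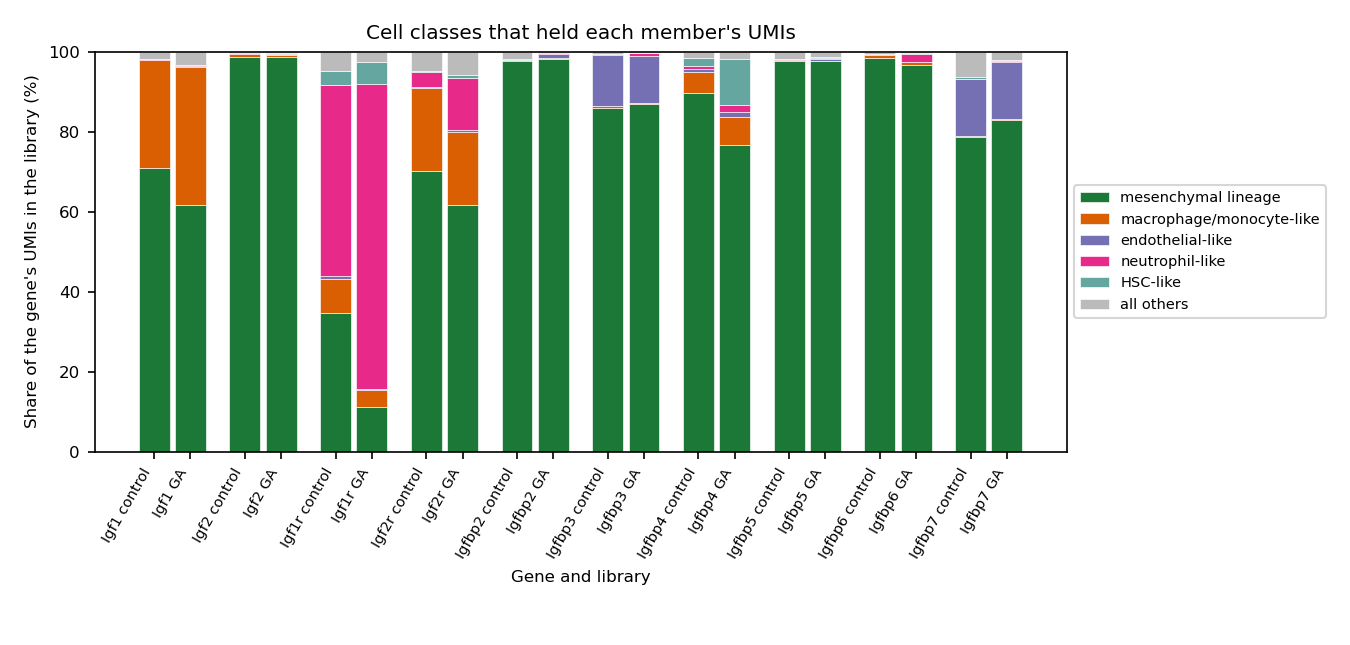
Share of each gene's UMIs (y axis, %) held by each class of cells, for every member in control and GA (x axis). Mesenchymal cells hold nearly the whole bar for Igf2, Igfbp2, Igfbp5 and Igfbp6, macrophage-like or monocyte-like cells hold 34.6% of the GA bar of Igf1, and neutrophil-like cells hold 76.2% of the GA bar of Igf1r.

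Summed over all cells, 1 of the 10 members was higher in GA beyond 1.5-fold and 7 were lower, where 8.94% of the 15318 genes with enough UMIs were higher and 18.4% lower. Igf1r was the higher one, at 408 CPM against 225 CPM (log2 ratio 0.86, interval 0.84 to 0.88). Igf2 stood lowest, at 9.41 against 38.2 CPM (-2.02), followed by Igf1 at 85.1 against 189 CPM (-1.15). Next came Igfbp7 at -1.05, Igfbp3 at 39.5 against 78.7 CPM, Igfbp2 at -0.91, Igf2r at -0.66 and Igfbp4 at -0.63. Igfbp5 at 270 and 272 CPM and Igfbp6 at 211 and 228 CPM were level between the libraries. The median of the 10 ratios was -0.78, and that of all genes was -0.08. The classes' shares of cells differed between the libraries, and in a sum fewer cells of a type and less RNA per cell cannot be told apart, so the classes are given 1 by 1.

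**Figure D2:**
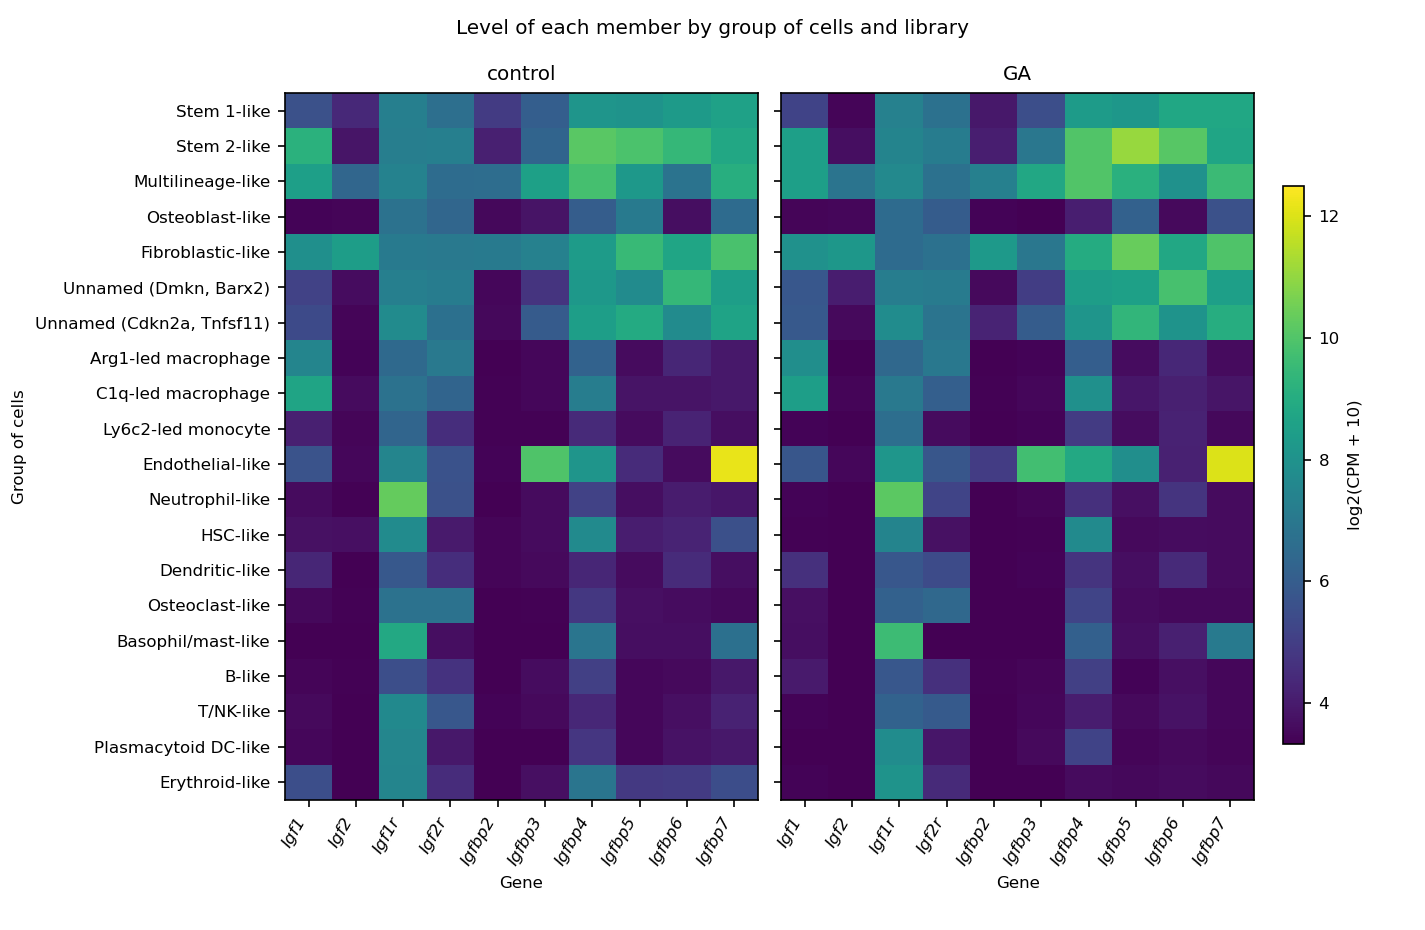
Level of each member (x axis) in each group of cells (y axis), as log2(CPM + 10) in colour, control left and GA right. Igf2 and Igfbp2 are bright in the fibroblastic and multilineage progenitor-like rows, Igf1r in the neutrophil-like row, and Igfbp7 in the endothelial-like row, in both libraries.

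Within the mesenchymal lineage the picture changed: Igfbp5 and Igfbp6 were higher in GA and Igf2 was lower, and the other 7 members lay within 1.5-fold. Among the 12823 genes with enough UMIs there, 4.52% were higher and 5.19% lower beyond 1.5-fold. The members' median ratio was -0.03 and that of all genes -0.02. The lineage was made of Stem 1-like cells, which divide (39 in GA and 112 in control), Stem 2-like cells with Pi16 and Clec3b (237 and 427), multilineage progenitor-like cells (162 and 407), osteoblast-like cells (77 and 65) and fibroblastic progenitor-like cells with Eln (53 and 357). The names follow the study, and 4 further clusters had no name: 1 led by Dmkn and Barx2 (228 and 238 cells), 1 led by Cdkn2a and Tnfsf11 (40 and 132), 1 led by the neutrophil genes S100a8 and S100a9 (20 and 8) and 1 led by the interferon-induced genes Ifit3 and Cxcl10 (9 and 2). The last pair counted in the lineage sums but were too small to be followed as groups, which leaves 7 groups. Without the cluster led by neutrophil genes the lineage count stayed at 3 members, with Igfbp5 at 0.83, Igfbp6 at 0.70 and Igf2 at -1.17, an alternative chosen after the data were seen. Median UMIs per cell were 51048 and 51249 in the lineage.

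Igf1, the ligand through which growth hormone acts in much of the skeleton, was at 178 CPM (174 to 181) in GA and 253 CPM (250 to 256) in control mesenchymal cells, from 8400 and 24727 UMIs. The log2 ratio was -0.51 (-0.55 to -0.47), under the 1.5-fold line, and 62.2% and 72.2% of the cells had a UMI. In B-like cells, which serve here as a class without the gene, 2.56% and 0.692% had one, at medians of 6472 and 5913 UMIs. Among mesenchymal groups Igf1 was highest in Stem 2-like cells in control, level between Stem 2-like and multilineage progenitor-like cells in GA, next in fibroblastic progenitor-like cells, and all but unseen in osteoblast-like cells, with 3 and 2 UMIs.

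Among the 7 groups, Igf1 was lower in GA beyond 1.5-fold in Stem 2-like cells alone. It was there at 356 CPM in GA and 574 CPM in control (log2 ratio -0.69, -0.74 to -0.64), and 86.1% and 97.9% of the cells had a UMI. It was also lower in Stem 1-like cells, at 25.9 and 38.6 CPM (-0.58), just under the line. It was level in multilineage progenitor-like cells, at 350 and 356 CPM, and in fibroblastic progenitor-like cells, at 243 and 230 CPM. Of the unnamed clusters, the Dmkn-led one was higher in GA, at 46.4 against 25.2 CPM (0.88, 0.71 to 1.06). The Cdkn2a-led one was at 48.5 against 31.4 CPM (0.62, 0.32 to 0.93), but 75 of its 134 GA and 87 of its 274 control UMIs lay in 5 cells. In the unnamed clusters too small to be followed Igf1 was lower in GA, at 121 and 454 CPM (20 and 8 cells) and at 167 and 212 CPM (9 and 2 cells).

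Stem 2-like cells were themselves 3 subclusters, and Igf1 differed among them. In the subcluster led by Pi16, Saa3 and Clec3b (118 GA and 135 control cells) Igf1 was at 244 and 554 CPM (-1.19), and in that led by C3, Pi16 and Procr (53 and 139 cells) at 227 and 472 CPM (-1.06). In the subcluster led by Cxcl5 and Angptl1 (66 and 153 cells) it was at 626 and 666 CPM (-0.09). The lower Igf1 was thus found in both subclusters led by Pi16, a marker of fibroblasts of outer connective tissue layers, and not in the Cxcl5-led one. These subclusters were chosen for mention after their values were seen, and the difference between them was not tested.

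**Figure D3:**
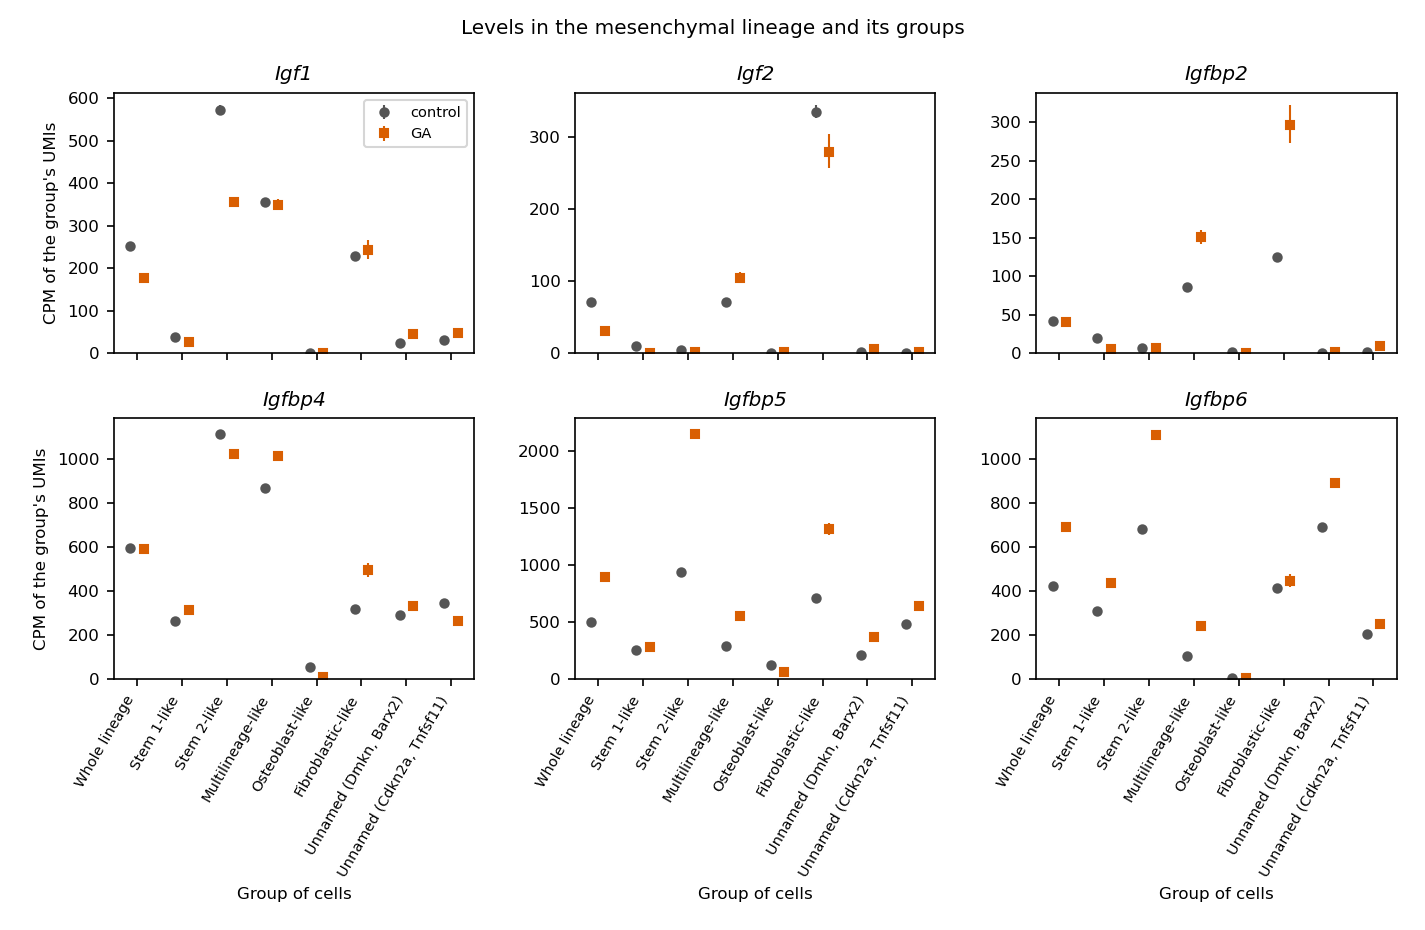
Level (y axis, CPM) of 6 members in the mesenchymal lineage and its 7 groups (x axis), control as grey circles and GA as orange squares, bars the exact Poisson 95% interval. Igf1 is lower in GA in Stem 2-like cells (356 against 574 CPM), Igf2 stands in 2 groups, and Igfbp5 lies above control in 6 of the 7 groups.

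Igf2, the imprinted ligand of fetal growth, was confined mostly to 2 groups. In the lineage it was at 31.5 CPM (29.9 to 33.1) in GA and 71.2 CPM (69.5 to 72.9) in control, from 1489 and 6955 UMIs, a log2 ratio of -1.18 (-1.26 to -1.10). A UMI was found in 12.3% and 20.9% of the cells, against 0% and 0.346% of B-like cells. Igf2 was thus rare per cell and strong in the cells that held it.

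Fibroblastic progenitor-like cells carried 5313 of the 6955 control UMIs of Igf2 and 545 of the 1489 in GA, and their share of the lineage was 20.4% in control and 6.13% in GA. Their own level was 280 CPM in GA and 335 CPM in control (-0.26), with a UMI in 62.3% and 63.6% of cells. In multilineage progenitor-like cells Igf2 was at 105 and 71.0 CPM (0.57), from 774 and 1361 UMIs. The lineage sum and the groups in it therefore differed in what they showed: with the groups averaged at the control shares, the lineage ratio was -0.08. That average did not adjust for subclusters inside a group. The fibroblastic progenitor-like cells were 2 subclusters, and Igf2 was lower in GA in both. It was at 152 and 256 CPM (-0.75) in the Eln-led one (34 and 289 cells). In that led by Ptgds (19 and 68 cells) it was at 585 and 798 CPM (-0.45). The group ratio of -0.26 sums over them in unequal shares.

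H19, the imprinted long noncoding RNA 72622 bases from Igf2 on chromosome 7, was at 339 CPM in GA and 566 CPM in control mesenchymal cells (-0.74, -0.77 to -0.71). Its largest gap was elsewhere than that of Igf2. In Stem 2-like cells, where Igf2 was under 5 CPM in both libraries, H19 was at 377 and 1044 CPM, and in fibroblastic progenitor-like cells at 539 and 730 CPM. Igf2os, the transcript opposite Igf2, had 2 and 9 UMIs in the lineage.

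Igf1r was level between the libraries in the mesenchymal lineage as a whole, and its level differed among the groups. It was lowest in osteoblast-like cells, at 81.8 CPM in GA and 98.9 CPM in control, and highest in the Cdkn2a-led cluster, at 210 and 203 CPM. In the lineage it was at 153 and 148 CPM (0.05), and 92.8% and 93.0% of the cells had a UMI. The ratios of the 7 groups ran from -0.65 to 0.28, and 1 was beyond 1.5-fold: in fibroblastic progenitor-like cells Igf1r was at 82.1 CPM in GA and 129 CPM in control (-0.65, -0.89 to -0.41). In the Eln-led subcluster of that group (34 and 289 cells) it was at 107 and 139 CPM (-0.38). In the Ptgds-led one (19 and 68 cells) it was at 22.7 CPM from 13 UMIs and 67.8 CPM from 157 UMIs (-1.58). The group ratio sums over them in unequal shares.

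Igf2r was at 116 CPM in both libraries in the lineage (0.00), and its 7 group ratios ran from -0.39 to 0.20, with none beyond 1.5-fold. Airn, the noncoding RNA that overlaps Igf2r, was at 502 and 472 CPM (0.09). Among the 7 groups, 1 of the Igf1r ratios and 0 of the Igf2r ratios were thus beyond 1.5-fold.

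Igfbp5, a binding protein abundant in bone and stored in its matrix, was the member with the widest difference towards GA in the mesenchymal lineage. It was at 895 CPM (886 to 903) in GA, from 42314 UMIs, and 502 CPM (497 to 506) in control, from 49051 UMIs. The log2 ratio was 0.83 (0.82 to 0.85), with a UMI in 81.7% and 77.6% of the cells, against 0.684% and 1.21% of B-like cells.

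The ratio of Igfbp5 was above 0 in 6 of the 7 groups and beyond 1.5-fold in 4 of them. Stem 2-like cells were highest, at 2156 CPM in GA against 939 CPM in control (1.20, 1.17 to 1.23), and every GA cell of the group had a UMI. Fibroblastic progenitor-like cells followed with 1320 and 714 CPM (0.89, 0.82 to 0.95), multilineage progenitor-like cells with 556 and 290 CPM (0.94, 0.88 to 1.00), and the Dmkn-led cluster with 365 and 208 CPM (0.81, 0.75 to 0.87). Stem 1-like cells, at 281 and 251 CPM (0.16), and the Cdkn2a-led cluster, at 645 and 483 CPM (0.42), were within 1.5-fold. Only osteoblast-like cells went the other way among the 7, at 61.3 CPM in GA from 194 UMIs and 125 CPM in control from 367 UMIs (-1.03, -1.29 to -0.78), a ratio that ran from -1.49 to -0.32 over the alternatives. Of these UMIs, 142 in GA and 244 in control lay in 5 cells.

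Finer subclusters mostly showed the same sign. Igfbp5 was at 2730 and 1322 CPM (1.05) in the subcluster led by Pi16 and Saa3, 2774 and 1105 CPM (1.33) in that led by C3 and Procr, and 814 and 535 CPM (0.60) in the Cxcl5-led one. Among multilineage progenitor-like cells it was at 943 and 414 CPM (1.19) in the subcluster led by Cxcl14, Matn4 and Tnmd, the last a tendon marker, and at 278 and 228 CPM (0.29) in that led by Mmp13 and Sox6. In the Eln-led subcluster of fibroblastic progenitor-like cells (34 and 289 cells) it was at 712 and 347 CPM (1.04). The other subcluster of that group was led by Ptgds, Slc47a1 and Penk (19 and 68 cells). Igfbp5 there was level between the libraries, at 2774 and 2861 CPM (-0.04), and highest of all mesenchymal subclusters in control only. That subcluster held 19 of the 53 GA and 68 of the 357 control cells of the group, so the group ratio of 0.89 sums over subclusters in unequal shares.

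Igfbp6, the binding protein that prefers IGF-2, was at 690 CPM (682 to 697) in GA and 424 CPM (420 to 428) in control mesenchymal cells, from 32611 and 41431 UMIs. The log2 ratio was 0.70 (0.68 to 0.72), with a UMI in 83.9% and 81.6% of the cells. The ratio was above 0 in all 6 groups with enough UMIs, from 0.11 to 1.21, and beyond 1.5-fold in 2. These were Stem 2-like cells at 1108 and 679 CPM (0.71, 0.67 to 0.74), and multilineage progenitor-like cells at 238 and 103 CPM (1.21, 1.11 to 1.30). The group ratios sum over subclusters in unequal shares. In fibroblastic progenitor-like cells (0.11) the Eln-led subcluster was at 0.03 and the Ptgds-led one at -0.22. The Stem 2-like subclusters were at 0.64 (led by Pi16 and Saa3), 0.63 (C3 and Procr) and 0.48 (Cxcl5). The multilineage ones were at 1.14 (Mmp13) and 0.92 (Cxcl14). The Dmkn-led cluster was high in both libraries, at 891 and 690 CPM (0.37). Osteoblast-like cells had 6 and 8 UMIs.

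Igfbp2 was level in the lineage and not in its groups. The lineage sums were 40.2 CPM in GA and 41.7 CPM in control (-0.05), from 1903 and 4073 UMIs. In fibroblastic progenitor-like cells it was at 296 CPM in GA and 125 CPM in control (1.25, 1.11 to 1.38), and in multilineage progenitor-like cells at 151 and 86.5 CPM (0.80, 0.69 to 0.91). The latter ratio sums over subclusters in unequal shares. Igfbp2 was at 256 and 154 CPM (0.73) in the Cxcl14-led one and at 76.0 and 52.7 CPM (0.53) in the Mmp13-led one. With the groups averaged at the control shares, the lineage ratio was 1.00. That average did not adjust for subclusters inside a group. The Ptgds-led subcluster held 19 of the 53 GA and 68 of the 357 control fibroblastic progenitor-like cells. Of the group's Igfbp2 UMIs, 246 of 577 in GA and 427 of 1976 in control lay in 5 cells. Within the fibroblastic progenitor-like cells, the Ptgds-led subcluster had Igfbp2 at 777 CPM from 446 UMIs in GA and 319 CPM from 739 UMIs in control (1.28), and the Eln-led one at 95.4 and 91.4 CPM (0.06). In the Ptgds-led subcluster Igf2 was at 585 and 798 CPM (-0.45). Stem 1-like cells went the other way, at 5.11 and 20.5 CPM (-2.004, -2.81 to -1.29), but 179 of their 206 control UMIs lay in 5 cells, and 8 alternatives gave a ratio above 0, from 0.12 to 0.91.

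Igfbp2 and Igf2 were strong in the same groups of cells. Over 33 points (19 groups of cells in either library), Igf2 was the gene most like Igfbp2, with Pearson's r of 0.96 on log2(CPM + 10). The points share 2 libraries and are no independent replicates. Igf2 was well above the added 10 CPM only in fibroblastic progenitor-like cells (280 and 335 CPM) and multilineage progenitor-like cells (105 and 71.0 CPM). The r value rests largely on those points. Within the Cxcl14-led multilineage subcluster both were high, Igf2 at 175 and 149 CPM (0.23) and Igfbp2 at 256 and 154 CPM (0.73). In the Eln-led fibroblastic subcluster Igf2 was at 152 and 256 CPM (-0.75) while Igfbp2 was level.

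Igfbp3, the main carrier of IGFs in blood, was at 116 and 128 CPM in the lineage (-0.14) and highest in multilineage progenitor-like cells, at 441 and 366 CPM (0.27). In Stem 2-like cells it was at 115 CPM in GA and 67.7 CPM in control (0.76, 0.66 to 0.87), but 0.02 with no batch correction. The subclusters of those cells were split: 69.5 and 25.2 CPM (1.46) in the subcluster led by Pi16 and Saa3 and 232 and 95.5 CPM (1.28) in the Cxcl5-led one, with a ratio of -0.55 in that led by C3 and Procr. In Stem 1-like cells it was at 36.1 and 57.2 CPM (-0.67, -0.96 to -0.38), with 82 of the 120 GA and 260 of the 575 control UMIs in 5 cells.

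Igfbp4, a binding protein that blocks IGF action until it is cut by PAPPA, was level in the lineage at 592 and 596 CPM (-0.01, -0.03 to 0.01). Its highest levels were in Stem 2-like cells, at 1023 and 1114 CPM (-0.12), and in multilineage progenitor-like cells, at 1012 and 867 CPM (0.22). Among the 7 groups it was beyond 1.5-fold in fibroblastic progenitor-like cells alone, at 493 and 317 CPM (0.64, 0.54 to 0.74). That group ratio sums over subclusters in unequal shares. Igfbp4 was at 400 and 304 CPM (0.40) in the Eln-led one (34 and 289 cells). In the Ptgds-led one (19 and 68 cells) it was at 716 and 395 CPM (0.86). In osteoblast-like cells it had 23 UMIs in GA (7.27 CPM) and 163 in control (55.6 CPM), fewer than the 200 set for a call.

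Igfbp7 was at 455 and 498 CPM in the lineage (-0.13), and 6 of its 7 group ratios lay within 1.5-fold. Fibroblastic progenitor-like cells were highest, at 1001 and 924 CPM (0.12). The exception was osteoblast-like cells, with 38.9 CPM from 123 UMIs in GA and 81.9 CPM from 240 UMIs in control (-1.08, -1.40 to -0.76). This rests on few UMIs, and the ratio was above 0 under 5 alternatives, from 0.29 to 1.20.

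By group, members beyond 1.5-fold were 4 of 9 with enough UMIs in Stem 2-like cells (3 higher, 1 lower), where 9.27% of all genes tested were beyond it in either direction. They were 3 of 10, all higher, in multilineage progenitor-like cells (4.89% of genes), and 4 of 10 in fibroblastic progenitor-like cells (3 higher, 1 lower; 10.7% of genes). They were 2 of 4 in osteoblast-like cells, both lower (12.4% of genes), and 2 of 9 in Stem 1-like cells, both lower (6.42% of genes). The Dmkn-led cluster had 2 of 8, both higher (6.17% of genes), and the Cdkn2a-led cluster 1 of 8, higher (10.2% of genes). The neutrophil marker list was higher in GA in each named group, at 829 against 158 CPM in Stem 2-like cells, 574 against 176 in multilineage, 503 against 145 in fibroblastic, 567 against 172 in Stem 1-like and 3257 against 766 in osteoblast-like cells. Its part in these counts was not tested.

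**Figure D4:**
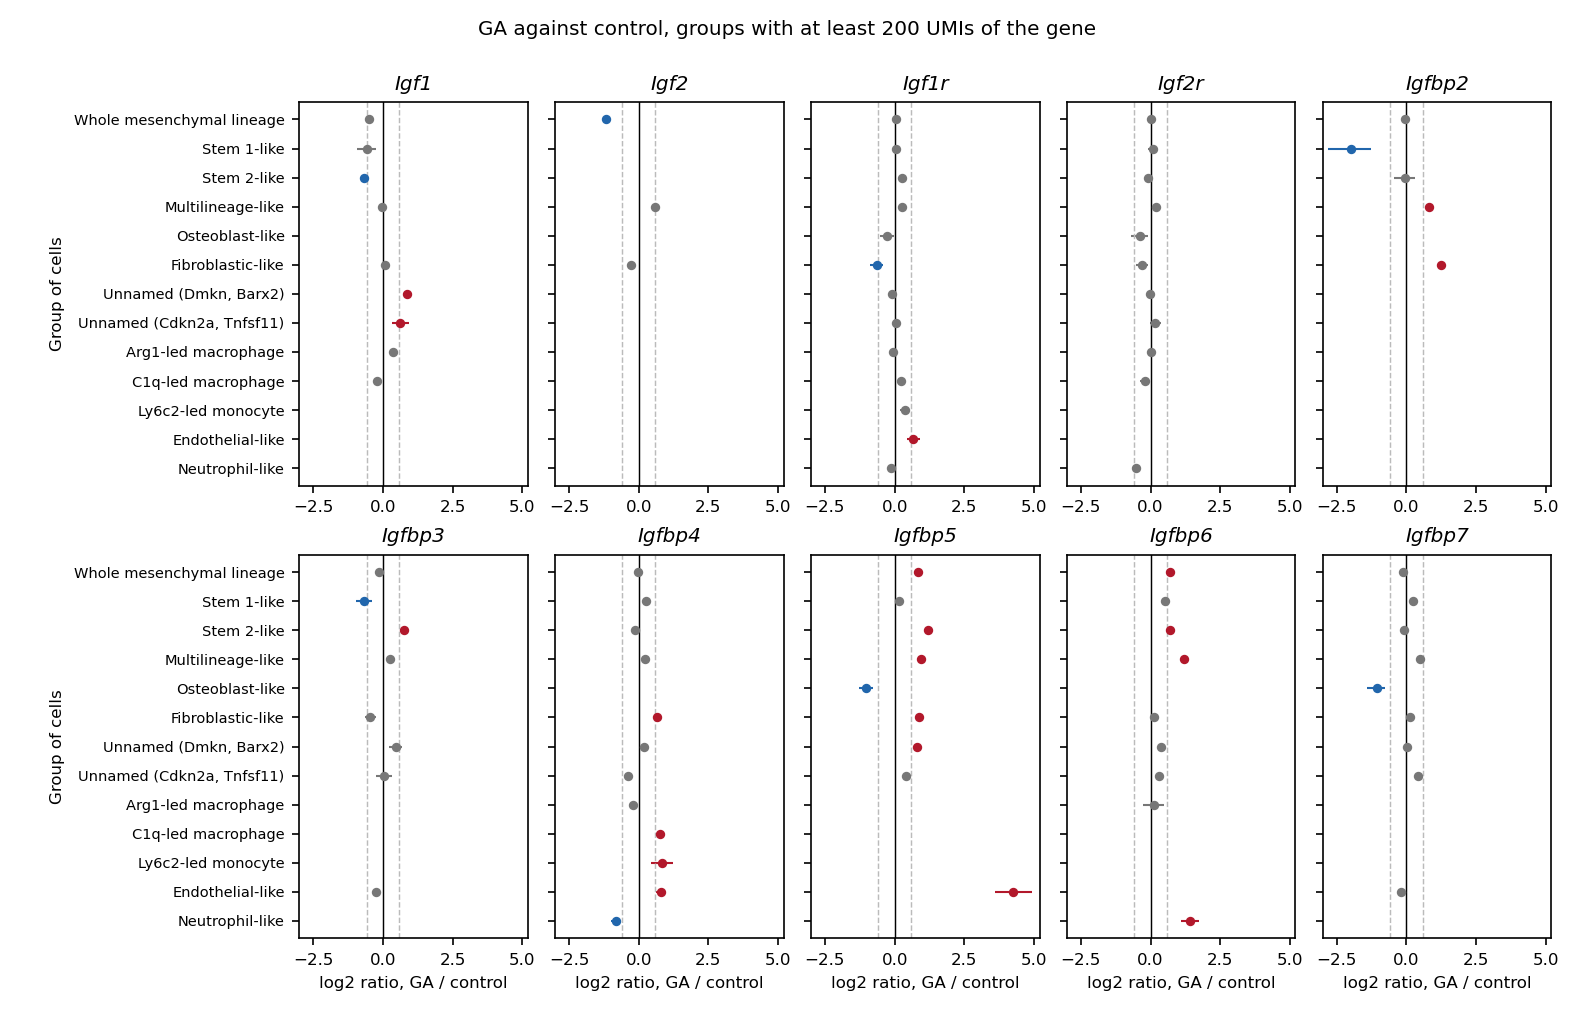
Log2 ratio of GA over control (x axis) for each member in the groups of cells named on the y axis, shown where at least 200 UMIs were counted, bars the exact conditional binomial 95% interval, dashed lines at 1.5-fold, red beyond it and higher in GA, blue beyond it and lower. Igfbp5 and Igfbp6 lie to the right of 0 in most mesenchymal groups, no Igf2r value shown is beyond 1.5-fold, Igf1r is beyond it in fibroblastic progenitor-like (-0.65) and endothelial-like cells (0.67), and the endothelial-like Igfbp5 value of 4.24 stands far out.

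Other genes of the pathway lay mostly within 1.5-fold in the mesenchymal lineage. Of 33 listed genes, 29 had enough UMIs, 0 were higher beyond 1.5-fold and 3 were lower, with a median ratio of -0.10. Most genes lay within it too: of 12823 with enough UMIs, 4.52% were higher and 5.19% lower. Pappa, the protease that cuts IGFBP4, was at 78.0 CPM in GA and 139 CPM in control (-0.83, -0.88 to -0.78). Stem 2-like cells had 29.96 and 102 CPM of Pappa, while fibroblastic progenitor-like cells had 132 and 71.2 CPM, the opposite order. Igf2bp2, an RNA-binding protein named for its binding to Igf2 transcripts, was at 48.3 and 73.7 CPM (-0.61, -0.68 to -0.54), and H19 is given above.

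In macrophage-like or monocyte-like cells, 3 of 7 members with enough UMIs were lower in GA and 0 higher, where 9.99% of 10420 genes were higher and 5.19% lower. Under 9 alternatives, no batch correction and Leiden resolution 2 among them, the count was 1. Igf1, which macrophages are known to secrete during repair, was at 154 CPM in GA and 235 CPM in control (-0.61, -0.66 to -0.56), from 4716 and 9409 UMIs. Igf2r was at 53.0 and 83.3 CPM (-0.65, -0.74 to -0.57), and Igfbp7 was low, at 2.48 and 4.72 CPM (-0.93). Igf1r, at 92.6 and 86.1 CPM (0.11), and Igfbp4, at 84.0 and 85.4 CPM (-0.02), were level. The neutrophil list in this class was at 3076 CPM in GA and 385 CPM in control, and its part was not tested.

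The differences of Igf1 and Igf2r were smaller inside the Arg1-led and C1q-led clusters of the class, and the 3 clusters made up different shares of it in the 2 libraries. The Ly6c2-led monocyte-like cluster was 42.4% of the class in GA and 22.6% in control, and it held almost no Igf1, at 0.519 CPM from 7 UMIs and 7.44 CPM from 45 UMIs, and little Igf2r, at 2.15 CPM from 29 UMIs and 12.7 CPM from 77 UMIs. The Arg1-led cluster (30.3% and 38.9% of the class) had Igf1 at 222 and 170 CPM (0.38) and Igf2r at 119 and 119 CPM (0.00). The C1q-led cluster (27.3% and 38.5%) had the highest Igf1, at 341.5 and 400 CPM (-0.23), and Igf2r at 59.2 and 68.1 CPM (-0.20). With the clusters averaged at the control shares, the class ratio was -0.03 for Igf1 and -0.12 for Igf2r, an alternative chosen after the data were seen. Igfbp7 did not follow this: on few UMIs it was at 2.18 and 4.99 CPM in the Arg1-led cluster (-1.20, -1.95 to -0.50), 4.52 and 5.202 CPM in the C1q-led one (-0.20) and 1.56 and 2.65 CPM in the Ly6c2-led one (-0.77), and its class ratio at the control shares was -0.63.

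Igfbp4 showed the reverse case, level in the class and higher in GA in 2 of its clusters. It was at 234 and 139 CPM in the C1q-led cluster (0.75, 0.66 to 0.84) and at 20.1 and 11.2 CPM in the Ly6c2-led one (0.84, 0.45 to 1.24). Members beyond 1.5-fold were 0 of 5 in the Arg1-led cluster (5.59% of genes), 1 of 4 in the C1q-led cluster (6.33%) and 1 of 2 in the Ly6c2-led cluster (11.8%). Subclusters, summed over both libraries, separated the members further. Igf1 was highest at 747 CPM in a subcluster led by Cd5l, a gene of resident macrophages, where Igfbp4 was at 18.96 CPM. Igfbp4 was highest at 342 CPM in a subcluster led by Cd209f, Ccl8 and Cd163, and Igf2r at 144 CPM in 1 led by Mmp12, Itgax and Ctsk. The Igfbp4-highest subcluster held 105 GA and 115 control cells, and another C1qa-rich one, at 231 CPM of Igfbp4, held 89 and 218. Ly6c2-rich subclusters at 16.4 and 52.9 CPM held 136 and 79 GA cells against 57 and 44 control cells. Those at 5.83 and 4.33 CPM held 151 and 133 against 139 and 97. The part of these cell numbers in the Igfbp4 ratios was not tested.

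**Figure D5:**
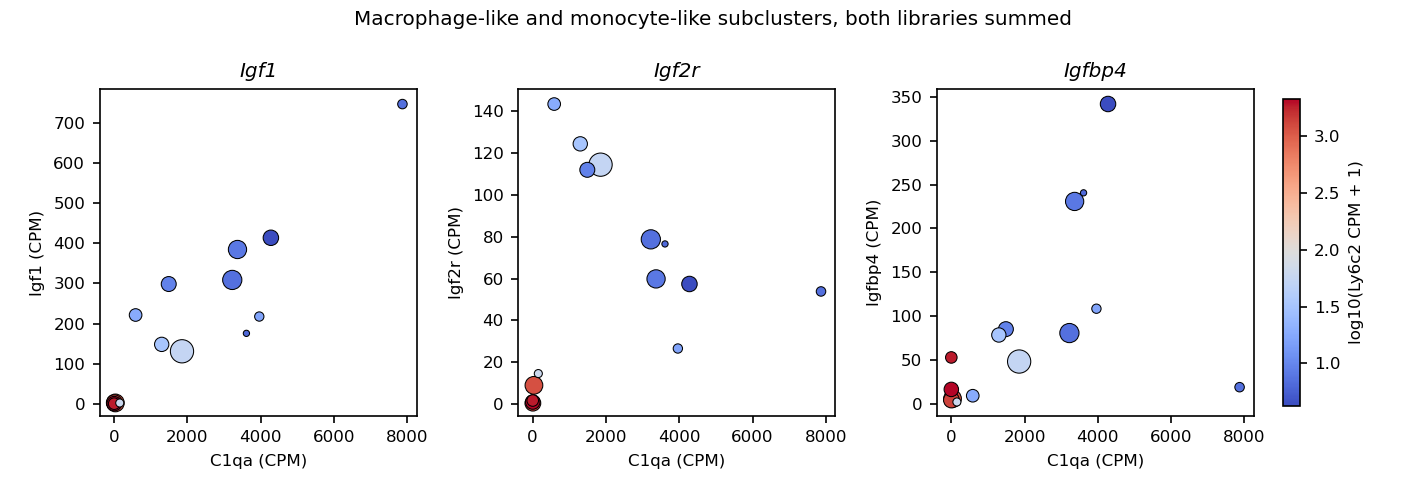
Level (y axis, CPM) of Igf1, Igf2r and Igfbp4 against C1qa (x axis, CPM) in subclusters of macrophage-like or monocyte-like cells, both libraries summed, point area by number of cells and colour by log10(Ly6c2 CPM + 1). Igf1 is near 0 and Igf2r is low in the red, Ly6c2-rich subclusters. Igf1 reaches 747 CPM where C1qa is highest, and Igf2r peaks at 144 CPM in a subcluster with C1qa at 588 CPM.

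Other genes of the pathway in macrophage-like or monocyte-like cells numbered 19 with enough UMIs, of which 0 were higher and 3 lower beyond 1.5-fold. Among all 10420 genes with enough UMIs in the class, 9.99% were higher and 5.19% lower. Irs2, an adaptor that carries the signal of both the insulin and the IGF-1 receptor, was at 63.4 CPM in GA and 123 CPM in control (-0.96, -1.03 to -0.88). Htra1, a secreted protease, was at 2.74 and 4.94 CPM (-0.85), and H19 at 4.21 and 11.3 CPM (-1.42). H19 and Igfbp7 were strong in mesenchymal cells. With the share of free RNA subtracted, the ratio of Igfbp7 in the class was -0.79.

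Vessel cells had the highest Igfbp7, and endothelial-like cells the highest Igfbp3, of all groups in both libraries. Igfbp7 was at 4100 and 4659 CPM (-0.18), from 3692 and 8785 UMIs in 45 and 46 cells, and 80.0% and 100% of the cells had a UMI. Igfbp3 was at 827 and 992 CPM (-0.26), but 689 of its 745 GA and 1095 of its 1870 control UMIs lay in 5 cells. A UMI of Igfbp3 was found in 44.4% of the GA and 84.8% of the control endothelial-like cells. In the 5 and 27 pericyte-like cells Igfbp7 was at 4357 and 4563 CPM, and Igfbp3 had 0 and 6 UMIs. Neither gene in endothelial-like cells was beyond 1.5-fold.

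Of the 5 members with enough UMIs in endothelial-like cells, 3 were higher in GA and 0 lower, where 6.14% of 2638 genes were higher and 5.34% lower. Igf1r was at 274 and 172 CPM (0.67, 0.43 to 0.91) and Igfbp4 at 460 and 264 CPM (0.80, 0.61 to 0.99). For Igfbp4, 267 of the 414 GA UMIs and 184 of the 498 control UMIs lay in 5 cells. A UMI of Igfbp4 was found in 75.6% of the GA cells and 95.7% of the control cells. Igfbp5 was at 220 CPM from 198 UMIs in GA and 11.7 CPM from 22 UMIs in control (4.24, 3.60 to 4.94), but 183 of the 198 GA UMIs lay in 5 cells. All 11 neutrophil markers were higher in these GA cells (summed 5322 against 207 CPM) and 0 of 7 pericyte markers were (330 against 1063 CPM), while the endothelial list was at 6739 and 6958 CPM and the mesenchymal list at 137 and 90.2 CPM. Median UMIs per cell were 14856 and 31449. The part of these in the 3 differences was not tested. Without the 5 cells richest in the gene in each library the Igf1r ratio was 0.03 and the Igfbp5 ratio 2.90, and with cells thinned to 2000 UMIs the Igf1r ratio was -0.20.

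Neutrophil-like cells were the main site of Igf1r, at 1169 CPM in GA and 1266 CPM in control (-0.12), from 49911 and 19846 UMIs, with a UMI in 92.7% and 89.1% of the cells. The higher Igf1r of the all-cell sum was thus not a higher level in these cells. Of the 4 members with enough UMIs in the class, 1 was higher and 1 lower, where 5.93% of 8251 genes were beyond 1.5-fold in either direction. Igfbp4 was at 14.3 and 25.2 CPM (-0.82, -1.004 to -0.633), and Igf2r at 27.0 and 38.5 CPM (-0.51).

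Igfbp6 was low in neutrophil-like cells but higher in GA, at 16.0 CPM from 683 UMIs and 6.06 CPM from 95 UMIs (1.40, 1.09 to 1.72). A UMI was found in 10.1% and 4.03% of these cells, against 3.42% and 1.90% of B-like cells, at median depths of 7049 and 5091 UMIs in neutrophil-like and 6472 and 5913 UMIs in B-like cells. With each cell thinned to 2000 UMIs the shares were 5.24% and 1.90% in neutrophil-like and 0.515% and 0% in B-like cells. The mesenchymal marker list in the neutrophil-like class had a summed level of 105 CPM in GA and 120 CPM in control, with 0 of 6 markers higher in GA. The part of RNA from other cells in the Igfbp6 value was not tested.

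The UMIs lay mostly in 2 clusters of neutrophil-like cells. In the cluster led by Il1r2 and Il1b, Igfbp6 was at 102 and 34.7 CPM (1.56, 1.08 to 2.08), with a UMI in 28.3% and 10.7% of cells. In the cluster led by Acod1 and Arg2 it was at 53.4 and 8.76 CPM (2.61, 1.88 to 3.44), with a UMI in 18.1% and 2.82% of cells, though its control value rests on 16 UMIs. Both clusters showed the direction of the whole class.

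The genes whose levels followed each member most closely over the same 33 points were listed with no test. Igf1 was followed by Gas6 (r of 0.96), Rnase4 (0.89) and Gm16685. Igf2 was followed by Vnn1 and Fam180a (0.98 each) and Gm11627 (0.96). For Igf1r they were Slc22a20, 9830166K06Rik (0.81 each) and Cxcr2 (0.80), the last a chemokine receptor of neutrophils, and for Igf2r Airn (0.94), whose gene overlaps it, Pde8a (0.87) and Arhgap10 (0.86).

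Among the binding proteins, Igfbp2 was followed, after Igf2, by Gng8 and Cys1 (0.95 each). Igfbp3 was followed by Bdkrb2 and Nid2 (0.96 each) and Mtmr11 (0.94), and Igfbp4 by Vcam1 (0.91), C430049B03Rik (0.88) and Fbln5 (0.87). Igfbp5 was followed by Gas1 (0.98), Nbl1 and Pdzrn3 (0.97 each), and Igfbp6 by Mfap5 and Efemp1 (0.97 each) and Ccn3 (0.96). Mfap5 and Efemp1 code for proteins of elastic fibres and the matrix around them. Igfbp7 was followed by Tcim, Hspb1 and Tm4sf1 (0.95 each).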

How the data were processed

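Calvarial cells of 1 GA and 1 control library (10x Genomics, 3′ UMIs) were analysed. The deposited matrices hold raw UMI counts per gene and barcode, which the authors made with Cell Ranger (7.0.1 in the file header) on mm10. Totals were 182949385 UMIs in 9322 GA barcodes and 214993030 in 8718 control barcodes.

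Cells with 500 to 140000 UMIs, 200 to 9500 genes and at most 15% mitochondrial UMIs were kept (9036 and 8093). Scrublet called 0.15% and 0.48% of barcodes, too few to rely on, so the highest doublet scores were removed at 0.8% per 1000 cells (660 and 538). Pearson residuals (theta 100) of 2000 variable genes, without the IGF members and pathway genes, gave 50 components, which were corrected with Harmony (rewritten, 10 rounds), joined by 15 neighbours and clustered by Leiden at resolution 1 (scanpy 1.11.5, leidenalg 0.10.2, scikit-learn 1.9.0, numpy 2.4.6, scipy 1.17.1, pandas 2.3.3, matplotlib 3.10.9, Python 3.11.15). A name required at least 3 markers found in 10% of the cluster's cells and 2-fold above the rest. The naming limits were set after the data were seen.

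UMIs were summed per group and library. CPM had exact Poisson, shares exact Clopper-Pearson, and ratios exact conditional binomial 95% intervals; UMIs of pooled mice carry no animal replication, so these cover counting error only. A group with 0 counts was read against a floor of 3 counts. Scripts were tested on simulated counts.

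Named were the 10 members, the listed pathway genes beyond 1.5-fold in mesenchymal or macrophage-like cells, and the 3 genes most correlated with each member among genes with at least 200 UMIs (groups of at least 20 cells). Subclusters and other named groups were chosen after their values were seen. The members and lists were chosen with earlier results of these data known. Alternatives changed the filters, doublets, batch correction, resolution, transformation, naming, scaling, count minimum, free RNA, depth, cell weighting and makeup.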

Additional observations from a re-analysis of the deposited data

Results flagged for a closer look

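In 6 members the ratio of GA over control was beyond 1.5-fold in 1 direction in some group of cells and in the other direction in another. The share of all genes that did so is not given here, so the count is not read as a trait of the family. With 1 library per condition none of these differences between groups was tested, and they are given as values. For Igf1 the ends were the Dmkn-led mesenchymal cluster, at 0.88 (interval 0.71 to 1.06), and Stem 2-like cells, at -0.69 (-0.74 to -0.64). For Igfbp2 they were fibroblastic progenitor-like cells, at 1.25, and Stem 1-like cells, at -2.004, where 5 control cells held 179 of 206 UMIs. For Igfbp3 they were Stem 2-like cells, at 0.76, and Stem 1-like cells, at -0.67. The Stem 2-like ratio was within 1.5-fold with no batch correction, and 51.5% of GA and 58.8% of control cells there had a UMI. In Stem 1-like cells 82 of the 120 GA UMIs and 260 of the 575 control UMIs lay in 5 cells.

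For Igf1r the ends were basophil-like or mast-like cells, at 764 CPM in GA and 456 CPM in control (0.75, 35 and 36 cells), and T-like or NK-like cells, at 63.9 and 196 CPM (-1.62), where 5 control cells held 126 of 346 UMIs. For Igfbp4 they were the Ly6c2-led monocyte-like cluster, at 0.84, and erythroid-like cells, with 3 UMIs in GA and 212 in control (-5.75, -8.04 to -4.19), 207 of the latter in 5 cells. In the erythroid-like cells the mesenchymal marker list was at 6.04 CPM in GA and 292 CPM in control, and its part in the Igfbp4 value was not tested. For Igfbp5 they were endothelial-like cells, at 4.24, with 183 of 198 GA UMIs in 5 cells, and osteoblast-like cells, at -1.03. In the latter 142 of 194 GA and 244 of 367 control UMIs lay in 5 cells.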

How the results depend on the processing

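Of 79 counts of genes beyond 1.5-fold recomputed under an alternative, 67 stayed within 1.5 times the value given, and of 726 ratios of single members 456 stayed close, 256 moved and 14 turned sign. The count in the mesenchymal lineage (3 members) ran from 3 to 4, and the Igfbp5 ratio there from 0.63 to 1.03 and the Igfbp6 ratio from 0.60 to 0.75. The count in macrophage-like or monocyte-like cells went from 3 to 1 with at most 10% mitochondrial UMIs, no batch correction, Leiden resolution 2, log1p scaling, members kept among the variable genes, at least 2000 UMIs per cell, naming by single-cell marker score, mean single-cell CPM and, chosen after seeing the data, clusters averaged with the control shares. That in endothelial-like cells went from 3 to 1 with no batch correction, members kept among the variable genes and at least 2000 UMIs per cell. Igfbp2 in Stem 1-like cells (-2.004) became 0.91 without doublet removal, 0.51 with no batch correction, 0.88 and 0.29 at Leiden 0.5 and 2, 0.86 with log1p, 0.59 with at least 2000 UMIs, 0.12 by marker score and 0.52 thinned. Igfbp7 in osteoblast-like cells (-1.08) became 1.20 with at most 10% mitochondrial UMIs, 0.92 with no batch correction, 0.29 at Leiden 2, 0.92 with log1p and 1.20 with at least 2000 UMIs. Igf1r in endothelial-like cells became -0.20 thinned. The cause of these moves was not tested. Multilineage progenitor-like cells were not named with at most 10% mitochondrial UMIs or at least 2000 UMIs, so these have no value there. No replicate could be left out. No paired analysis was possible because each condition had 1 library. Groups under 50 cells and levels under about 10 CPM have the widest intervals, and animals' spread is unknown.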

Other observations

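Cells of the marrow and blood lineages carried few members. Hematopoietic progenitor-like cells (411 in GA, 290 in control) had Igfbp4 at 201 and 199 CPM and Igf1r at 168 and 207 CPM, and they held 11.5% of the Igfbp4 UMIs in GA and 2.11% in control. Their Igfbp7 was at 1.96 CPM from 41 UMIs in GA and 37.4 CPM from 257 UMIs in control (log2 ratio -4.26, -4.77 to -3.78). In the same cells the endothelial marker list was at 126 and 130 CPM and the mesenchymal list at 137 and 193 CPM. The pericyte list was at 1.48 CPM in GA and 11.5 CPM in control. A single cluster held 33 of the 41 GA UMIs and 244 of the 257 control UMIs. Its median depth was 52953 UMIs per cell in GA and 10782 in control. The part of these in the Igfbp7 value was not tested.

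Osteoclast-like cells (29 and 58) had Igf1r at 61.5 and 99.2 CPM (-0.69) and Igf2r at 76.7 and 101 CPM. Plasmacytoid dendritic-like cells had Igf1r at 212 and 177 CPM, other dendritic-like cells at 45.7 and 47.2 CPM, and B-like cells at 46.4 and 36.1 CPM. Erythroid-like cells had Igf1r at 250 and 170 CPM. In dendritic-like cells Igf2r was at 33.0 and 13.2 CPM.

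A small unnamed cluster (157 and 175 cells), in which the macrophage gene C1qa and the bone matrix gene Col1a1 were both high, had Igf1 at 376 and 497 CPM, Igfbp5 at 579 and 336 CPM (0.79) and Igfbp7 at 111 and 349 CPM (-1.65). Its pericyte marker list was at 80.0 CPM in GA and 235 CPM in control, its neutrophil list at 4646 and 397 CPM, and their part in these values was not tested.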
